A study of Mus musculus with 4 samples.

Results

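The genes described here are 10 mouse genes for myoblast fusion and cell adhesion, Mymk, Mymx, Cdon, Boc, Neo1, Cdh15, Cdh2, Jam2, Jam3 and Ncam1, out of 18193 genes that had a probe set with a single symbol. They were taken by symbol, with every probe set annotated to exactly one of them, which gave 29 of 34945 such probe sets. Expression was measured in C2C12, an immortalised mouse myoblast line, on 4 Affymetrix 3' arrays. Cells of the 2 shControl arrays stably carried a hygromycin-selected plasmid with a non-targeting hairpin, and those of the 2 shLSD1 arrays carried the same kind of plasmid with a hairpin against LSD1, a histone demethylase encoded by Kdm1a. Both groups were grown in 10% FBS under hygromycin B at 750 µg/mL and then moved to 2% horse serum, with glucose at 25 mM throughout, and RNA was taken 48 hours after induction. The labels name 1 hairpin against LSD1 and do not say whether the arrays of a group come from separate cultures or clones, and p-values therefore cover only array-to-array spread, part or all of which may be technical.

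Skeletal muscle fibres form when single myoblasts recognise each other, adhere and merge their membranes into a multinucleated myotube. Cadherins, junctional adhesion molecules and immunoglobulin-like receptors act at the contact, and some of these receptors also pass a signal that promotes the muscle gene programme. The membranes themselves are merged by 2 muscle-specific proteins, myomaker (Mymk), which permits the outer leaflets to mix, and the small protein myomixer (Mymx), which completes the pore.

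All values are MAS5 signals on a linear scale, and a log2 fold change is the mean log2 signal of shLSD1 minus that of shControl. Array medians ran from 67.3 to 69.7. Each gene was read from 1 probe set, and genes with a mean signal over 65.6 were tested. The targeted gene was lower in the knockdown. Kdm1a measured 1842 and 1912 in shControl and 301 and 367 in shLSD1, which leaves 17.7% of control (log2 fold change -2.50, SE 0.11, n = 2 and 2, limma adjusted p = 4.55e-05).

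All 10 genes passed the signal filter, and the probe set standing for each gene was above it on 4 of 4 arrays. Of the 10, 4 fell in the knockdown (Mymk, Mymx, Boc and Ncam1), 1 rose (Jam2), and 5 (Cdon, Neo1, Cdh15, Cdh2 and Jam3) did not pass an adjusted p of 0.05 in limma's test over 10788 genes. Among all genes tested 6.82% fell and 8.46% rose. The members and the related lists below were chosen with earlier results of these data known, so such shares are descriptions and do not test enrichment. The median log2 fold change was -0.13 over the 10 genes and 0.00 over all genes tested. The shControl and shLSD1 signals did not overlap for 8 of the 10, against 59.6% of all genes tested. The precision is limited by the number of arrays: without shControl replicate 1 only Mymx and Ncam1 of the 10 passed the test, and without shControl replicate 2 only Mymx. Without the intensity trend in the variance model only Boc did.

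**Figure D1:**
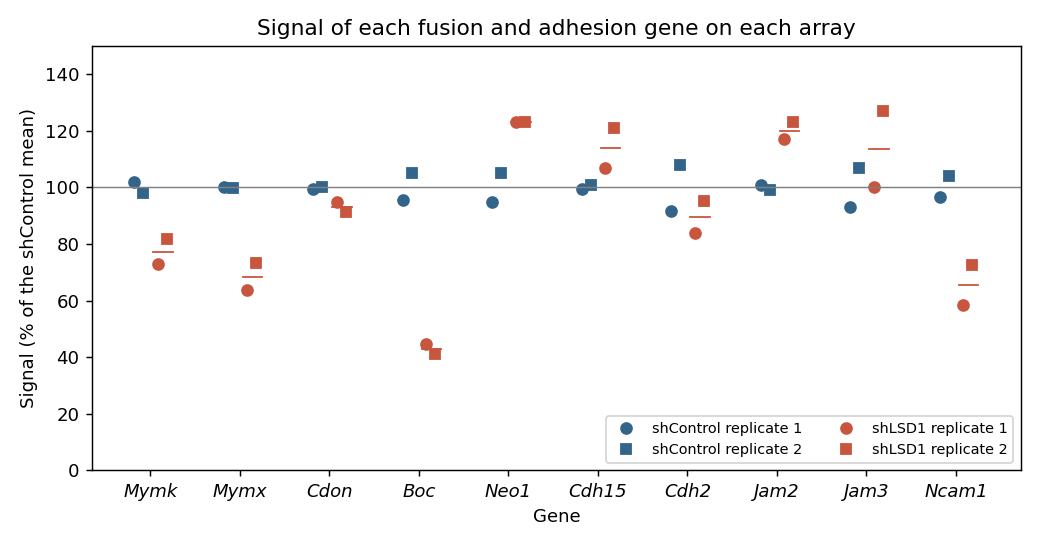
Signal of each of the 10 genes on each array, as a percentage of that gene's shControl mean (y axis), with 4 points per gene and a short line at the shLSD1 mean. Boc sits lowest, at 44.6% and 41.0% in shLSD1. Ncam1, Mymx and Mymk also lie below all their control points, and Jam2 lies above its own. Cdon likewise lies below its control points, and Neo1 and Cdh15 above theirs, without passing the test. The groups did not overlap for 59.6% of all genes tested.

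The fusion proteins were both lower in the knockdown. Mymx measured 8986 and 8954 in shControl and 5708 and 6570 in shLSD1. Both knockdown arrays lay far below the control arrays, which differed little from each other. The fold change was -0.55 (SE 0.07, 95% interval -0.71 to -0.39, limma adjusted p = 2.11e-03), which is 68.3% of control. Mymk measured 12697 and 12227 in shControl and 9071 and 10172 in shLSD1, again with no overlap, and fell to 77.1% of control (log2 fold change -0.38, SE 0.06, interval -0.52 to -0.24, limma adjusted p = 6.49e-03). Each of these genes has 1 probe set on the array, so neither value has a second measurement. The call of Mymk was lost without the intensity trend (adjusted p = 0.0937), without shControl replicate 1 (0.100) and without shControl replicate 2 (0.0700), and that of Mymx was lost without the intensity trend (0.0577).

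Muscle markers fell alongside them. Of 10 markers of myoblasts and myotubes tested, 8 fell and 0 rose, against 6.82% and 8.46% of all genes tested. Of these markers 0 were higher at an unadjusted limma p under 0.05, and their median log2 fold change was -0.58. Their summed signal was 163004 and 160710 in shControl and 113851 and 125447 in shLSD1. Myogenin (Myog), a transcription factor of terminal differentiation, fell by 0.61 (limma adjusted p = 1.59e-03, SE 0.07), and its partner Mef2c fell by 0.88 (limma adjusted p = 4.26e-03, SE 0.13). Neither passed when the intensity trend was left out of the variance model, and Mef2c also missed the threshold without shControl replicate 1. The determination factor Myf5 rose by 1.28 (SE 0.07, limma adjusted p = 8.72e-05), and Myod1 measured -0.17 (SE 0.10, limma adjusted p = 0.324), with -0.33 without shControl replicate 1 and -0.004 without shControl replicate 2. The part of this shift in the change of Mymk and Mymx was not tested, and in RNA from whole cultures fewer differentiated cells and less RNA per cell cannot be told apart.

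Of the receptors Cdon, Boc and Neo1 only Boc passed the test. Cdon and Boc are immunoglobulin-like surface proteins that promote muscle differentiation, associate with cadherins at contacts between myoblasts and also act as Hedgehog coreceptors, and neogenin (Neo1) binds netrins and repulsive guidance molecules. Boc measured 177 and 194 in shControl and 82.8 and 76.1 in shLSD1, the largest fold change of the 10 genes. It fell to 42.8% of control (log2 fold change -1.22, SE 0.21, interval -1.71 to -0.74, limma adjusted p = 8.05e-03), and 0.482% of all genes tested had a fold change at or below it. Its knockdown signals lie just above the filter of 65.6, where MAS5 signals are noisy. A second Boc probe set measured 97.7 and 86.5 against 62.2 and 51.0, a fold change of -0.71 (SE 0.28) that did not pass the test over 19940 probe sets (limma adjusted p = 0.156) and that was above the filter in the control arrays only. The Boc call was lost without shControl replicate 1 (adjusted p = 0.0667) and without shControl replicate 2 (0.0925), and with log2(signal + 32) the fold change was -0.96.

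Cdon did not pass the test. It measured 7006 and 7063 in shControl and 6683 and 6420 in shLSD1. The groups did not overlap, but the fold change of -0.10 (SE 0.05, interval -0.21 to 0.00) did not pass the test (limma adjusted p = 0.179), and a dimmer Cdon probe set gave -0.04 (SE 0.18). Neo1 measured 532 and 588 in shControl and 687 and 690 in shLSD1, with both knockdown arrays higher. Its fold change of 0.30 (SE 0.09, interval 0.08 to 0.52) also missed the threshold (limma adjusted p = 0.0738). The other tested Neo1 probe sets, of the kinds that can cross-hybridise, gave 0.10 and -0.64, and averaging all Neo1 probe sets gave -0.01.

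Neither cadherin passed the test. M-cadherin (Cdh15), the cadherin typical of myoblasts and satellite cells, measured 6516 and 6602 in shControl and 7004 and 7938 in shLSD1. Both knockdown arrays were higher, shLSD1 replicate 2 more so, and the fold change was 0.18 (SE 0.06, interval 0.04 to 0.33, limma adjusted p = 0.0952). Without shLSD1 replicate 2 it measured 0.095 (adjusted p = 0.168), and it passed the threshold without shLSD1 replicate 1, at 0.28 (adjusted p = 2.76e-03), and with the replicate number as a block (adjusted p = 0.0484). N-cadherin (Cdh2), which is shared with neurons and other mesenchymal cells, measured 4378 and 5166 in shControl and 3995 and 4537 in shLSD1. Its groups overlapped, and the fold change was -0.16 (SE 0.09, interval -0.37 to 0.05, limma adjusted p = 0.286), moving between -0.28 without shControl replicate 1 and -0.04 without shControl replicate 2. A further Cdh2 probe set had lower signals in both knockdown arrays, 1658 and 2014 against 2179 and 2246, and a fold change of -0.28 (SE 0.09, limma adjusted p = 0.0969 over probe sets). It passed without shLSD1 replicate 2, at -0.42 (adjusted p = 4.20e-03), and with the replicate block (0.0235), and measured -0.14 without shLSD1 replicate 1.

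Jam2 was the member that rose. Jam2 and Jam3 encode junctional adhesion molecules that bind each other across cell contacts, and their zebrafish counterparts are needed for fusion of fast muscle precursors. Jam2 measured 2459 and 2408 in shControl and 2853 and 2998 in shLSD1, with no overlap. The rise was to 120% of control (log2 fold change 0.27, SE 0.06, interval 0.13 to 0.40, limma adjusted p = 0.0192). All 5 Jam2 probe sets were tested, and all had a positive fold change, from 0.16 to 0.52. They read 1 gene on the same arrays, so they are not independent. In none did the groups overlap, which also held for 59.6% of all genes tested. The dimmest measured 113 and 84.5 in shControl and 135 and 114 in shLSD1. Of the 5 probe sets, 2 rose by the test over probe sets, at 0.27 and 0.52 (limma adjusted p = 0.0225 and 0.0190). The gene's call was lost without shControl replicate 1 (adjusted p = 0.125), without shControl replicate 2 (0.155), without the intensity trend (0.110) and when its probe sets were averaged (0.0722). Jam3 measured 625 and 720 in shControl and 674 and 855 in shLSD1. These ranges overlap, and the fold change of 0.18 (SE 0.13, interval -0.13 to 0.49) did not pass the test (limma adjusted p = 0.411). It moved from 0.007 without shLSD1 replicate 2 to 0.35 without shLSD1 replicate 1, and averaging its probe sets, including a dim one, gave -0.11.

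Ncam1 fell, and most of its probe sets gave the same picture. It encodes the neural cell adhesion molecule, an immunoglobulin-like protein of neurons and developing muscle whose isoforms change as myoblasts fuse. The probe set standing for the gene measured 4594 and 4931 in shControl and 2782 and 3456 in shLSD1, with shLSD1 replicate 1 the lower knockdown array, as for Mymk and Mymx. It fell to 65.1% of control (log2 fold change -0.62, SE 0.10, interval -0.85 to -0.39, limma adjusted p = 6.15e-03). Of 7 Ncam1 probe sets 6 were tested and 5 fell. Those 5 had fold changes of -0.62, -0.57, -0.47, -0.46 and -1.17, the last from a dimmer probe set at 251 and 298 against 152 and 97.3. All 5 lost their call without the intensity trend, and the dimmer probe set lost it with no filter too. The remaining tested one measured 306 and 375 in shControl and 280 and 364 in shLSD1, which overlap, and a fold change of -0.09 (SE 0.17, limma adjusted p = 0.795). What part of the transcript each probe set reads was not analysed here. The gene's call was lost without shControl replicate 2 (adjusted p = 0.0741), without the intensity trend (0.0795) and when its probe sets were averaged (-0.51, 0.0622).

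**Figure D2:**
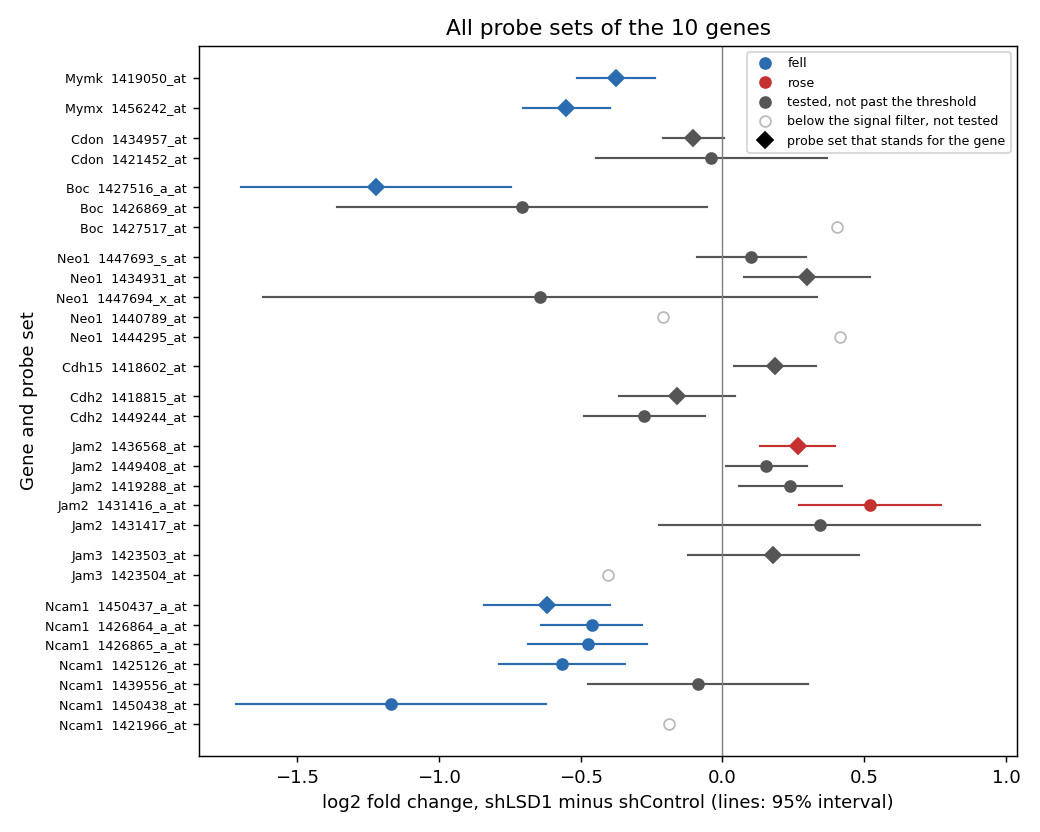
Log2 fold change (x axis, shLSD1 minus shControl) of all 29 probe sets of the 10 genes, with 95% intervals for the 24 that were tested and open circles for the 5 below the signal filter. Of the 24, 8 fell and 2 rose. The 5 Jam2 points lie right of 0 and the 6 tested Ncam1 points left of it.

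Over all 29 probe sets of the 10 genes, 24 passed the filter, 8 fell and 2 rose, against 5.39% and 6.43% of the 19940 probe sets tested. The 8 belong to Mymk, Mymx, Boc and Ncam1, and 5 of them read Ncam1, so they are not independent. The 5 probe sets below the filter were 2 of Neo1 and 1 each of Boc, Jam3 and Ncam1.

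Related genes were compared within each array, since a signal cannot be set against that of another probe set but a change in their ratio can. The log2 ratio of Boc to Neo1 was lower in both shLSD1 arrays, at -1.46 and -1.59 relative to the shControl mean, where the control arrays were 0.005 and -0.005 from that mean. Relative to the control mean the log2 ratio of Cdon to Boc was 1.09 and 1.15 in the knockdown. Both ratios rest on Boc signals that lie just above the filter in the knockdown. With log2(signal + 32) the mean shift was 0.86 for Cdon to Boc and -1.25 for Boc to Neo1. The ratio of Cdon to Neo1 shifted by -0.40 (SD 0.09 in shControl and 0.05 in shLSD1), and that of M-cadherin to N-cadherin by 0.34 (SD 0.16 and 0.00). For Mymx to Mymk the shift was -0.18 (SD 0.04 and 0.03). In these 5 pairs the groups did not overlap. Single genes did not overlap for 59.6% of all genes tested, and the share for other ratios was not computed. A two-sided exact permutation test of 2 against 2 arrays cannot go below p = 0.333. Each of the 5 pairs reached this value (0.400 after adjustment over the 6 pairs). The ratios among Cdon, Boc and Neo1 are not independent, since each follows from the others. The ratio of Jam2 to Jam3 overlapped between groups (shift 0.09, exact p = 0.667), and the shift was -0.03 without shControl replicate 2 and -0.05 without shLSD1 replicate 1. Several of these sizes depend on the probe sets used. With all probe sets of each gene averaged, dim ones included, the shift was -0.50 for Boc to Neo1, 0.44 for Cdon to Boc, -0.06 for Cdon to Neo1 (exact p = 0.667) and 0.42 for Jam2 to Jam3.

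**Figure D3:**
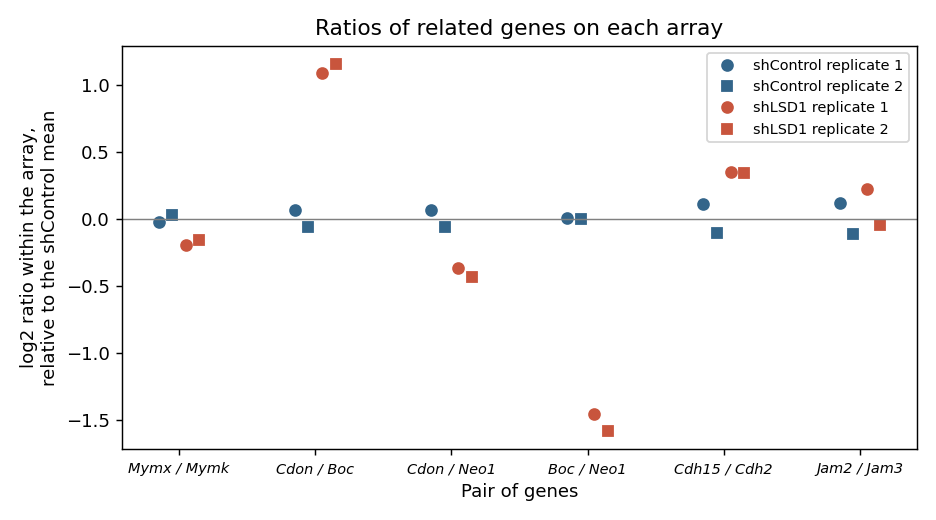
Log2 ratio of 6 pairs of related genes on each array, from 1 probe set per gene, relative to the shControl mean of that ratio (y axis), with 4 points per pair. The shLSD1 points lie apart from the shControl points for 5 pairs, farthest for Boc with Neo1 (-1.52 on average) and Cdon with Boc (1.12), and overlap for Jam2 with Jam3. Single genes did not overlap between groups for 59.6% of all genes tested, and the share for other ratios was not computed.

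Other genes of fusion went both ways. Of 48 listed genes with a probe set 40 were tested, with a median of 0.02. Of these, 6 rose and 6 fell (15% each), against 8.46% and 6.82% of all genes tested. The largest fall was that of Adam12, a membrane metalloprotease gene of fusing myoblasts, which measured 1035 and 1018 in shControl and 308 and 345 in shLSD1 (log2 fold change -1.66, SE 0.10, limma adjusted p = 1.18e-04). Itgb1bp2, which encodes the muscle integrin-binding protein melusin, fell by 1.49 (SE 0.06, limma adjusted p = 4.45e-05). Tmem182, a muscle membrane protein gene known to restrain fusion, fell by 0.85 (SE 0.05, limma adjusted p = 1.75e-04). Ccn1, a secreted matrix-associated protein gene, fell by 0.54, but 1 of its probe sets gave 0.05 and the average over them did not pass. The genes that rose did so by 0.20, for Anxa1, to 0.53, for Wipf1, both named after their values were seen.

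Signalling partners of Cdon and Boc fell in a share near that of all genes tested (6.82%). Of 24 tested, 0 rose and 2 fell (8.33%), with 1 higher and 6 lower at an unadjusted limma p under 0.05, and the median was -0.07. The netrin gene Ntn1, whose product binds neogenin, fell by 0.37 (SE 0.06, limma adjusted p = 7.56e-03), but its other probe set above the filter gave 0.27. Hjv, a repulsive guidance molecule gene of muscle, fell by 0.37 (SE 0.07, limma adjusted p = 0.0154), with -0.32 at its other probe set. Neither passed without shControl replicate 1, without shControl replicate 2 or without the intensity trend, nor did Ntn1 when its probe sets were averaged. Actin-remodelling genes push the invading membrane during fusion. Of 22 tested, 1 rose (4.55%, against 8.46% of all genes) and 0 fell (against 6.82%), with 5 higher and 2 lower at an unadjusted limma p under 0.05, and the median was 0.06. The gene that rose was the formin gene Diaph1, at 0.43 (SE 0.07, limma adjusted p = 7.21e-03), with 0.12 at its other probe set, and it did not pass without shControl replicate 1, without shControl replicate 2, without the intensity trend or as the average of its probe sets.

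Among the other cadherins and catenins there were calls in both directions. Of 15 tested, 4 fell (26.7%) and 1 rose (6.67%), against 6.82% and 8.46% of all genes tested. The median was -0.03. Fat1, a large protocadherin-like gene, fell by 0.46 (SE 0.05, limma adjusted p = 1.70e-03), Cdh11, a cadherin gene of mesenchymal cells, by 0.75 (limma adjusted p = 9.16e-03) and Fat4 by 0.71 (limma adjusted p = 0.0224). Cdh11 and Fat4 did not pass without shControl replicate 1, without shControl replicate 2 or without the intensity trend, and Cdh11 also failed as the average of its probe sets. The gene that rose was the epithelial cadherin gene Cdh1, which measured 60.1 and 51.9 in shControl and 153 and 139 in shLSD1. Its control signals lie under the filter, so it was tested only because of its knockdown signals, and its call was lost without shControl replicate 2.

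Other immunoglobulin-family adhesion genes moved opposite to Ncam1 in several cases. Of 15 tested, 6 rose (40.0%) and 1 fell (6.67%), against 8.46% and 6.82% of all genes tested. The median was 0.10. The gene that fell, as Ncam1 did, was Vcam1, named after its values were seen. It measured 2685 and 2852 in shControl and 2156 and 1713 in shLSD1 (log2 fold change -0.53, SE 0.10, limma adjusted p = 0.0145). L1cam, an adhesion molecule gene of neurons, measured 325 and 338 in shControl and 1492 and 1715 in shLSD1, and thus rose by 2.27 on the log2 scale (limma adjusted p = 4.55e-05, SE 0.10). Cadm4, a nectin-like adhesion gene, rose by 0.77 (SE 0.08, limma adjusted p = 1.21e-03) and Igsf8, whose product binds tetraspanins, by 0.49 (limma adjusted p = 3.75e-03, SE 0.07), which did not pass without shControl replicate 1. F11r, which encodes a further junctional adhesion molecule, rose by 0.56 (SE 0.08, limma adjusted p = 3.14e-03), but averaging its probe sets, the others of which are dim, gave -0.20 (adjusted p = 0.430).

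**Figure D4:**
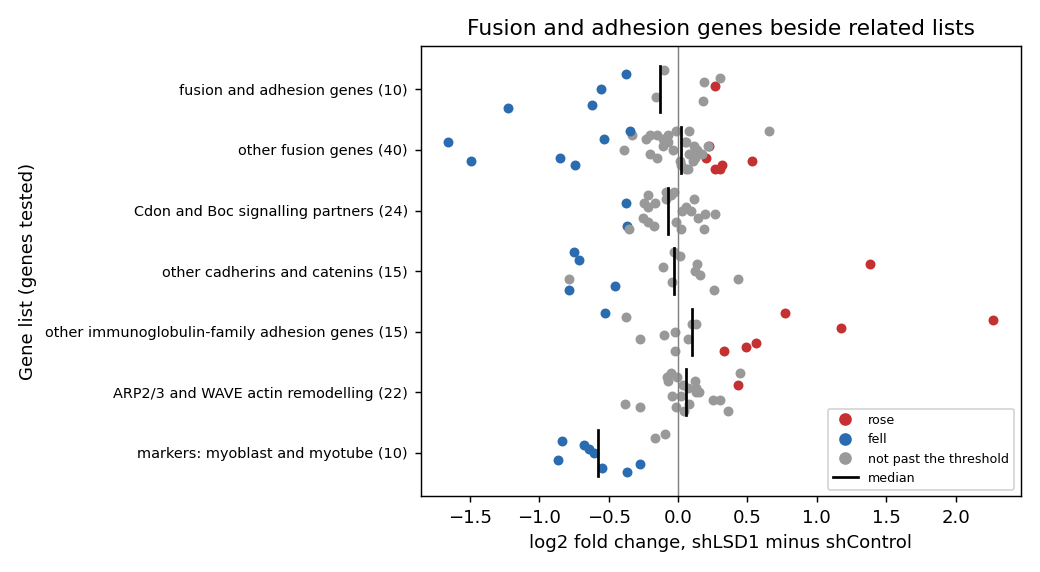
Log2 fold change (x axis) of each tested gene in the 10 fusion and adhesion genes, 5 related lists and the myoblast and myotube markers, with a vertical bar at each list's median. The fusion and adhesion genes spread from -1.22 to 0.30 around a median of -0.13, and the muscle markers lie lower, around -0.58.

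Markers of other cell types were measured beside these adhesion genes. Among all genes tested 8.46% rose. The neuron list had 8 markers with a probe set, of which 4 passed the filter and all 4 rose, Map2 by 1.33, Stmn2 by 1.02, Nefl by 0.70 and Tubb3 by 0.36. Its summed signal was 4239 and 4043 in shControl and 7506 and 7752 in shLSD1. The other 4 markers of the list, Rbfox3, Snap25, Syt1 and Elavl3, were below the filter. The epithelial list summed to 287 and 304 in shControl and 575 and 510 in shLSD1, with 3 of 8 above the filter, of which Ocln (2.11) and Cdh1 (1.38) rose and Krt8 (0.53) did not pass. Like Cdh1, Ocln passed the filter only through its knockdown signals, 173 and 130 against 34.1 and 35.4. No endothelial marker passed the filter, which is set on the mean over all arrays. Among them Tek measured 27.8 and 26.4 in shControl and 66.9 and 109 in shLSD1, and was not tested. The filter was passed by 1 adipocyte, 2 osteoblast and 2 macrophage markers, with 0 called by limma and 0 at an unadjusted p under 0.05. The part of other cell types in the changes of L1cam, Ncam1 and Cdh1 was not tested. The muscle markers Des, Myod1 and Myog were above the filter on these arrays.

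The genes most like each changed member were found by the Euclidean distance of log2 signals, centred on each gene's mean, over 4 arrays, which is a description of these arrays only. Nearest to Mymk were Cdk5r1 (distance 0.018) and Apobec2 (0.028), and nearest to Mymx were Tspan13 (0.036) and Rnf122 (0.045). Boc was followed by Cblc (0.075) and Casq1 (0.095), the fast-fibre calsequestrin gene. Cblc measured 158 and 182 in shControl and 74.5 and 72.3 in shLSD1. Casq1 measured 2023 and 2190 in shControl and 1010 and 856 in shLSD1. Ncam1 was nearest to Synpo2l (0.031) and Mapk4 (0.067), and Jam2 to Edem2 (0.011) and Ppp1r2 (0.017). Of the genes named here, Mapk4 (limma adjusted p = 0.167) and Edem2 (limma adjusted p = 0.077) did not pass the test themselves.

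Genes next to the 10 on the chromosomes were read in the same fit. For each, the 10 nearest tested genes on either side were taken in the gene order of assembly GRCm38.p6, leaving out the other members. The medians of these 20 neighbours ran from -0.04 to 0.11. Around Boc 3 of the 20 neighbours fell and 4 rose (median 0.09), and around Ncam1 2 fell and 2 rose (median 0.06). Around Mymx 1 fell and 4 rose (median 0.07), and around Mymk 1 fell and 2 rose (median -0.04). Around Jam2, the member that rose, 3 fell and 1 rose (median -0.04). For comparison, 6.82% of all genes tested fell and 8.46% rose.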

How the data were processed

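The authors deposited 1 signal intensity per probe set and array on a linear scale, made with MAS5 and Affymetrix Expression Console, per the submitters' processing notes (versions not given). The mean signal after trimming 2% of probe sets at each end was 500.003 on every array, so each had been scaled by 1 factor. On a log scale, such signals scatter widely close to background.

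Signals under 1 were set to 1 before log2. Symbols came from the platform annotation: 34945 of 45101 probe sets had 1 symbol, 932 several, 9160 none, and 64 were controls. A gene was read from its brightest probe set, avoiding the _s_at and _x_at types where another existed, and tested above the median mean log2 signal (6.03). The test was limma 3.58.1 (R 4.3.3; lmFit, eBayes with an intensity trend), two-sided, with Benjamini-Hochberg adjustment over all 10788 genes, or over 19940 probe sets for single probe sets. The method was tested on simulated data with independent noise on each array, which cannot show whether the real arrays of a group are technical replicates. Figures used matplotlib 3.10.9.

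Genes named are the 10 members, Kdm1a, 4 myogenic regulators, up to 4 called genes of each related list and the 2 genes most like each called member. The members and lists were chosen with earlier results of these data known. The alternatives are those given under the processing dependence.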

Additional observations from a re-analysis of the deposited data

How the results depend on the processing

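The counts of calls and the fold changes of the genes and probe sets named were recomputed with a replicate block, without each array, with median centring or quantile normalization, with log2(signal + 32), with no filter or a stricter one (log2 8.92, which left out Boc), with robust variance or no intensity trend and, for genes, with probe sets averaged. The ratios of related genes were recomputed without each array, with each normalization, with log2(signal + 32) and with probe sets averaged, and marker sums, neighbours and nearest genes were not recomputed. Kdm1a kept its call in all of these. Counts that rose and fell in all genes (913 and 736) ran from 295 to 1101 and from 203 to 1001 without 1 array, and were 362 and 252 without the trend and 493 and 407 with the mean of probe sets. Among the 10 genes (1 and 4), 0 to 2 rose and 1 to 4 fell without 1 array, 0 and 1 without the trend, and 0 and 2 with the mean of probe sets, where Boc was not tested. Among their probe sets (2 and 8), 0 to 2 rose and 2 to 9 fell without 1 array, 0 and 1 without the trend, and 1 rose with the stricter filter, which left out the dimmer one. In the related lists together (14 and 13), 5 to 20 rose and 6 to 18 fell without 1 array, 6 and 5 without the trend, and 9 and 8 with the mean of probe sets.

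The ratio shifts ran, without 1 array, from -0.20 to -0.15 for Mymx and Mymk, 1.06 to 1.18 for Cdon and Boc, -0.47 to -0.34 for Cdon and Neo1, -1.59 to -1.46 for Boc and Neo1, 0.23 to 0.46 for Cdh15 and Cdh2, and -0.049 to 0.22 for Jam2 and Jam3, where -0.03 was the value without shControl replicate 2. With probe sets averaged they were 0.44 for Cdon and Boc, -0.06 for Cdon and Neo1, -0.50 for Boc and Neo1, 0.40 for Cdh15 and Cdh2 and 0.42 for Jam2 and Jam3. With the mean of probe sets Neo1 measured -0.007, Jam3 -0.11 and F11r -0.20. Without 1 array the dimmer Cdon probe set ranged from -0.132 to 0.053, and the Ncam1 probe set that did not pass ranged from -0.275 to 0.102.

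The labels do not say that replicate numbers pair the arrays, and the deviations of same-numbered arrays correlated at 0.010. With the replicate block 2 of the 10 genes rose, Jam2 and Cdh15, 4 fell, and all genes gave 1113 and 886. Where not stated, the cause was not tested.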
